A study of Mus musculus with 6 samples.

Results

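The subject is the nuclear genes of respiratory complex I in the lumbar spinal cord of mice after a course of morphine. Members were all genes of the table whose symbol begins with Ndufa, Ndufb, Ndufc, Ndufs or Ndufv followed by a number, plus Ndufab1 and the assembly factors named Ndufaf, without pseudogenes. This gave 46 of 52513 genes: 7 core subunits, 29 accessory subunits, 8 assembly factors, and Ndufa4 and Ndufa4l2, which carry the name but are not counted here as subunits of complex I. The tissue was the L4 to L5 stretch of the cord from wild-type animals, which received 7 days of intrathecal saline (3 libraries) or morphine, 10 µg in 10 µL (3 libraries). Strain, sex and age were not in the labels. The sample descriptions list 3, 3 and 2 numbers for libraries 1, 2 and 3 of each group, and the labels do not say whether these are pooled animals, so p-values measure only the spread between these libraries. Levels are in FPKM, which divides fragments by the length of the transcript and by library depth.

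Complex I is the entry point of the mitochondrial respiratory chain. It takes electrons from NADH, passes them through a flavin and a row of iron-sulphur clusters to ubiquinone, and pumps protons across the inner membrane. Core subunits carry the cofactors and the pumps, and some of them are encoded by mitochondrial DNA and were not analysed here. Accessory subunits surround and stabilise the core, and assembly factors help to build the complex and then leave it. In the spinal cord its NADH oxidation supplies much of the ATP that neurons spend on ion pumping.

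After morphine most accessory subunit transcripts stood at a slightly higher level, and 6 of them passed the test across all genes. These were Ndufa2, Ndufa5, Ndufa6, Ndufb3, Ndufb5 and Ndufv3, at 1.23 to 1.38 times their saline mean. No member passed in the other direction (background 0.561%). Counts called higher were 6 of 46 members, against 0.944% of the 14614 genes tested (limma, Benjamini-Hochberg adjusted p under 0.05 over all genes). An unadjusted p under 0.05 was reached by 37 members with a higher and 1 with a lower mean, against 11.2% and 11.1% of all genes. The median log2 fold change of the members was 0.25 and that of all tested genes was -0.02. The mean was higher with morphine in 41 of 46 members, against 46.9% of tested genes. All 46 members passed the filter of at least 1 FPKM in at least 3 libraries.

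The 6 calls were not stable. When saline 1, saline 2, saline 3, morphine 1 or morphine 3 was left out in turn, 0 members passed, beside 0.0%, 0.0274%, 0.00684%, 0.0% and 0.0% of all genes. When morphine 2 was left out, 18 members passed, the 6 among them, beside 3.63% of all genes. With each library rescaled to a total of 1000000 (TPM) 3 members passed (background 0.691%), and with quantile normalization 1 (0.322%). With the trend of the values on the annotated exonic length removed 0 passed (0.13%), with a smallest limma adjusted p of 0.0538. With no filter on low values, over 28021 genes, 0 passed (0.0214%), and with no intensity trend in the fit 0 (0.0958%). A pseudocount of 0.1 gave 5 (0.773%) and a mean of at least 5 FPKM 10 (2.06%). With TPM, quantile normalization and the length trend removed the median of the members was 0.12, 0.14 and 0.17, beside medians of all genes of -0.13, -0.01 and 0.00. With no filter, no intensity trend, the other pseudocount and the higher filter it was 0.25.

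The promoters of 5 of the 6 members that passed are shown first (Ndufa2 had no window), so that the letters before their start sites can be compared, and beside them those of the subunits with a nuclear respiratory factor 1 (NRF1) match in the same stretch and of the 2 subunits with the lowest fold change. RefSeq windows of 250 bases before to 50 after the start (GRCm38.p6, the same assembly as mm10) matched 40 of the 46 members by symbol, and 1 window a gene was counted. Each line is the 100 bases before the start on the gene's strand, 5′ to 3′, and capitals mark matches to the motifs searched.
Ndufa5, chr6:24527691-24527790, minus strand: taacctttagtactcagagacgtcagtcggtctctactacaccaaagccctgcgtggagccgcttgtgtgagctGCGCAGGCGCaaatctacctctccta
Ndufa6, chr15:82354292-82354391, minus strand: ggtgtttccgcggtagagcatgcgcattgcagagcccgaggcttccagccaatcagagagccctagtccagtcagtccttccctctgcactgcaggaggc
Ndufb3, chr1:58586297-58586396, plus strand: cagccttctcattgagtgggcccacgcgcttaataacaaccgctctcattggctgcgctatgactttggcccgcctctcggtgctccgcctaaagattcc
Ndufb5, chr3:32736963-32737062, plus strand: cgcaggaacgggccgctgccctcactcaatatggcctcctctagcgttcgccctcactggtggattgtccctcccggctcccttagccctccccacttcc
Ndufv3, chr17:31520015-31520114, plus strand: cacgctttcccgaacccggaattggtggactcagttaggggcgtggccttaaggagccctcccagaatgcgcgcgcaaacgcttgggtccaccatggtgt
Ndufa8, chr2:36049339-36049438, minus strand: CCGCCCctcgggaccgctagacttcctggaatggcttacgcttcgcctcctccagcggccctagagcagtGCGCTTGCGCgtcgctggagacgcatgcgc
Ndufa11, chr17:56717662-56717761, plus strand: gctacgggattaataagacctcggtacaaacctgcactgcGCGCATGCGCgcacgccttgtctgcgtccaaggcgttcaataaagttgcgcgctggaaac
Ndufb4, chr16:37654369-37654468, minus strand: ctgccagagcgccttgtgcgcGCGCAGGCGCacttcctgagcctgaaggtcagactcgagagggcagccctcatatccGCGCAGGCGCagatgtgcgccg
Ndufs5, chr4:123718187-123718286, minus strand: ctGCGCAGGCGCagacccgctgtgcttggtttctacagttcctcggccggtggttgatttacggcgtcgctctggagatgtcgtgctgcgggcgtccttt
Ndufs6, chr13:73328483-73328582, minus strand: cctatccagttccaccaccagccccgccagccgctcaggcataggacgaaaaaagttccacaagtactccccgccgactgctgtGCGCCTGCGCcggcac
Ndufa9, chr6:126849145-126849244, minus strand: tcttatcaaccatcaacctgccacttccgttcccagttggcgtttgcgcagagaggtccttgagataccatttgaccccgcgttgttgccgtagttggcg
Ndufv1, chr19:4012756-4012855, minus strand: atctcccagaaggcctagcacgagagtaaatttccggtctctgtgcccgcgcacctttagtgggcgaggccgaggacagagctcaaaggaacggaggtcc

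The motif GCGC, any base, then TGCGC, which belongs to NRF1, a transcription factor known for its sites in respiratory chain genes, was present on either strand in 9 of 40 member windows (22.5%) and in 1293 of 27025 windows of all genes (4.8%). It was in 7 of 27 accessory, 0 of 5 core and 2 of 7 assembly windows. Of the members that passed and had a window, Ndufa5 had the match before its RefSeq start and Ndufa6 after it. Ndufb3, Ndufb5 and Ndufv3 had no match to these letters in the window. The match of Ndufa5 lay at -26 from the start in the window shown and at -190 in its other window. The stretch shown lies wholly inside Ndufa5 in the GENCODE annotation, where the gene starts at base 24528013. The octamer AAGATGGC, a form of the YY1 site, was in 8 of 40 member windows and in 2.9% of all. In all 8 it lay on the sense strand after the start, from base 11 to base 39, and in 7 of them its ATG was the annotated start codon of the protein. A sense match after the start was found in 0.96% of all windows, a count added after the positions had been seen. The ETS letters CCGGAAG were in 6 of 40 windows, against 9.1% of all, the SP letters GGGCGG in 21 (52.5% against 35.9%) and TATAAA in 4 (10.0% against 14.2%). Such a match is a description of the letters and not evidence of binding, and the windows with and without a match were not tested against the fold changes.

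Subunit transcripts were abundant in the saline cord. The mean level in saline was at least 100 FPKM in 32 of the 46 members, and 36 members lay above the 90th percentile of the tested genes. Accessory subunits ran from 36.0 FPKM for Ndufa11, a membrane arm subunit, to 669 FPKM for Ndufb8, also of the membrane arm, with a median of 195 FPKM. Core subunits ran from 80.3 FPKM for Ndufs8 to 198 FPKM for Ndufv2, with a median of 156 FPKM. Assembly factors were far lower, from 8.58 FPKM for Ndufaf6 to 57.5 FPKM for Ndufaf2, with a median of 23.8 FPKM, so that every assembly factor except Ndufaf2 lay below every subunit in saline. The spread between saline libraries was small, with a median coefficient of variation of 3.9% over the members, and it was 4.42% in morphine.

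**Figure D1:**
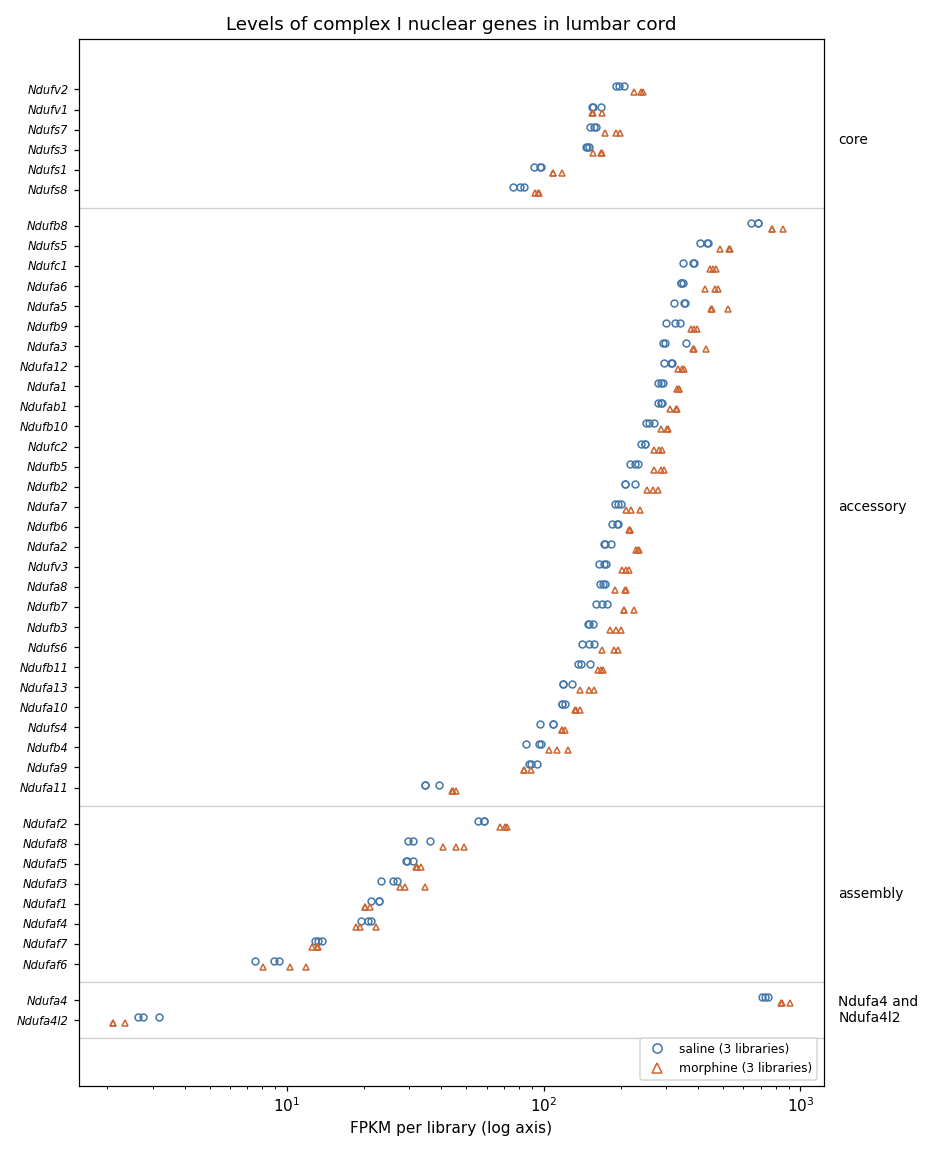
FPKM of the members in each library, with 1 core member not drawn, on a log axis, ordered within class by the saline mean, with circles for the 3 saline and triangles for the 3 morphine libraries. Accessory subunits lie between 36.0 and 669 FPKM in saline with the triangles to the right of the circles in 28 of 29 (13.0% of tested genes). Assembly factors have saline means of 57.5 FPKM or below.

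The 7 nuclear core subunits carry the path of the electrons. Ndufv2, which holds an iron-sulphur cluster beside the flavin at the tip of the matrix arm, measured 197, 191 and 205 FPKM with saline (libraries 1, 2 and 3), against 243, 224 and 238 with morphine 1, 2 and 3, the order used throughout. All its morphine values lay above its saline values, and it did not pass (log2 fold change 0.25, SE 0.06, limma adjusted p = 0.0651). Ndufs1, the largest subunit, which holds several iron-sulphur clusters of the matrix arm, measured 97.1, 97.3 and 91.8 FPKM with saline, against 118, 109 and 109 with morphine (adjusted p = 0.0819). Its exons overlap those of Eef1b2 on the opposite strand, which stood at 226 FPKM in saline and 269 in morphine.

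The subunits nearer the quinone site stood higher by like or smaller amounts and did not pass. Ndufs7, which holds the last cluster before ubiquinone, measured 159.9, 152 and 157 FPKM with saline, against 199, 173 and 192 with morphine. Ndufs8, which holds the 2 clusters that lead to it, measured 81.1, 76.3 and 83.5 FPKM with saline, against 92.8, 95.6 and 95.3 with morphine. Neither group overlapped the other in these genes, with log2 fold changes of 0.26 and 0.23 (limma adjusted p = 0.0780 and 0.0715). Ndufs3, a subunit of the matrix arm without a cofactor, measured 147, 150.2 and 146 FPKM with saline, against 169, 156 and 167 with morphine, a log2 fold change of 0.15 (adjusted p = 0.157).

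Ndufv1, the subunit that binds NADH and the flavin, measured 155, 154 and 167 FPKM with saline, against 154, 156 and 168 with morphine. Its means were 159 ± 7.25 and 159 ± 7.87 FPKM (SD, n = 3 each), and the 95% interval of its log2 fold change ran from -0.14 to 0.15. With TPM the value was -0.12 and with quantile normalization -0.09. Of the core genes 0 of 7 passed with limma, and 5 of 7 had an unadjusted p under 0.05 with a higher mean (11.2% of tested genes). All morphine values lay above all saline values in 5 of 7 (background 13.0% of tested genes), and the median was 0.23.

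The accessory subunits hold all the calls, 6 of 29 (background 0.944% of tested genes). Without morphine 2, 13 accessory, 2 core and 2 assembly genes passed, beside 3.63% of all genes. No difference between classes was tested. Ndufa5, a small matrix arm subunit at the quinone module, had the largest fold of the subunits. It measured 352, 322 and 355 FPKM with saline (libraries 1, 2 and 3), against 524, 447 and 453 with morphine 1, 2 and 3, so that the lowest morphine library stood well above the highest saline library. Its mean went from 343 ± 18.6 to 475 ± 42.8 FPKM (SD, n = 3 each), a log2 fold change of 0.46 (SE 0.08, 95% interval 0.28 to 0.65, limma adjusted p = 0.0465). Ndufa6, a member of the LYR family that sits on the matrix arm together with the acyl carrier protein, measured 342, 342 and 348 FPKM with saline, against 479, 425 and 464 with morphine. Its saline libraries differed by less than 6 FPKM and its morphine libraries were spread more widely (344 ± 3.27 and 456 ± 27.8 FPKM, log2 fold change 0.40, adjusted p = 0.0456).

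Ndufa2, a thioredoxin-like subunit of the NADH module, measured 172, 173 and 183 FPKM with saline, against 233, 229 and 236 with morphine, and had the smallest adjusted p of the members (176 ± 5.88 and 233 ± 3.59 FPKM, log2 fold change 0.40, limma adjusted p = 0.0381). It was the 1 member that passed with both TPM and quantile normalization, at 0.28 and with an adjusted p of 0.0406 under TPM. Ndufv3, a small subunit of the same module, measured 172, 175 and 165 FPKM with saline, against 210.0, 202 and 214 with morphine (log2 fold change 0.29, adjusted p = 0.0488). With a pseudocount of 0.1 in place of 1 it no longer passed.

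Ndufb3 and Ndufb5, both of the distal membrane arm, moved by like amounts. Ndufb3 measured 149, 150.4 and 156 FPKM with saline, against 199.7, 182 and 191 with morphine (log2 fold change 0.33, limma adjusted p = 0.0465). Ndufb5 measured 232, 218 and 226 FPKM with saline, against 294, 269 and 285 with morphine (log2 fold change 0.33, adjusted p = 0.0465). In all 6 genes that passed, morphine 2 was the lowest morphine library and still lay above every saline library.

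**Figure D2:**
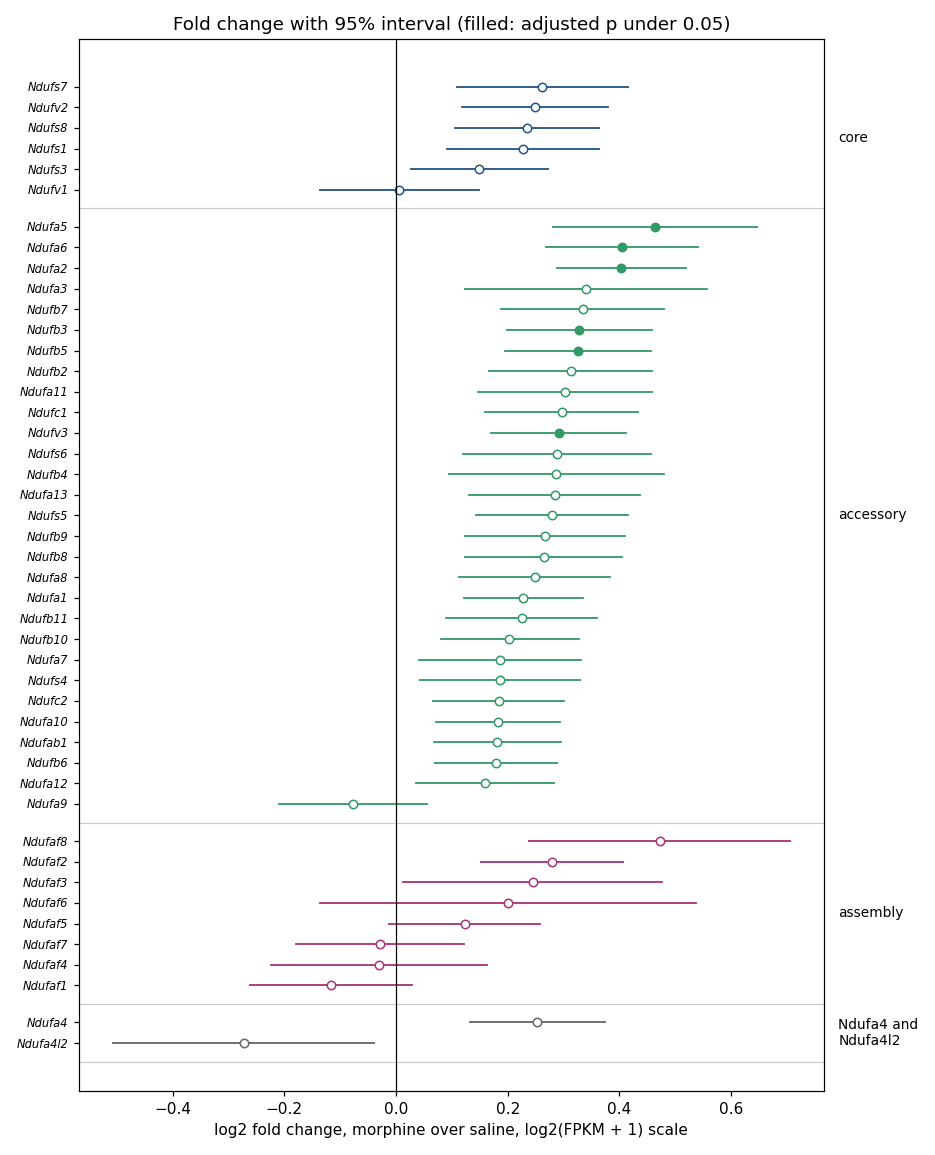
Log2 fold change, morphine over saline, of the members, with 1 core member not drawn, each with its 95% interval from limma (log2 of FPKM plus 1, 3 libraries a group), filled where the adjusted p was under 0.05. Most points lie to the right of 0, from -0.27 for Ndufa4l2 to 0.47 for Ndufaf8, and the 6 filled points are accessory subunits.

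Next to these in order of p stood 4 accessory subunits that did not pass. Ndufb7, a distal membrane arm subunit on the intermembrane side, measured 176, 159.8 and 168 FPKM with saline, against 225, 205 and 206 with morphine (log2 fold change 0.33, limma adjusted p = 0.0525). Ndufc1, a small membrane arm subunit, measured 385, 348 and 382 FPKM with saline, against 471, 443 and 456 with morphine (0.30, adjusted p = 0.0553). Ndufa1, an X-linked membrane arm subunit needed for assembly, measured 290.4, 279 and 287 FPKM with saline, against 337, 329 and 336 with morphine (0.23, adjusted p = 0.0559). In each of these the groups did not overlap.

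Ndufb2, also of the distal membrane arm, measured 227, 207 and 207 FPKM with saline, against 278, 252 and 267 with morphine (log2 fold change 0.31, limma adjusted p = 0.0566). Of the other 19 accessory subunits 18 had all morphine values above all saline values (13.0% of tested genes), with log2 fold changes from 0.16 for Ndufa12 to 0.34 for Ndufa3. Ndufb8, the most abundant subunit, had a mean of 669 ± 25 FPKM in saline and 804 ± 46.4 in morphine, and Ndufa11, the least abundant, 36.0 ± 2.54 and 44.6 ± 0.903 (SD, n = 3 each). Ndufab1, the mitochondrial acyl carrier protein, had 285 ± 4.93 and 323 ± 10.1 FPKM.

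The exception among the 29 was Ndufa9, which sits at the junction of the matrix and membrane arms near the quinone site. It measured 94.3, 89.4 and 87.6 FPKM with saline, against 83.9, 89.3 and 83.8 with morphine. The groups overlapped, and the log2 fold change was -0.08 (95% interval -0.21 to 0.06, limma adjusted p = 0.460).

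Sorted by the modules in which complex I is built, the NADH module (8 genes) had a median log2 fold change of 0.24, the quinone module (6 genes) 0.19, the proximal membrane arm (9 genes) 0.28 and the distal membrane arm (10 genes) 0.28. All 9 proximal and all 10 distal genes had every morphine value above every saline value, against 13.0% of tested genes. Ndufv1 and Ndufa9, whose groups overlapped, belong to the matrix arm. Ndufa6, which passed, Ndufa7 and Ndufab1 were given no module here and had a median of 0.19. No difference between modules was tested.

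The 8 assembly factors were mixed: 0 of 8 passed with limma, and 5 had a higher and 3 a lower mean with morphine. An unadjusted p under 0.05 was reached by 3, all with a higher mean (11.2% of tested genes). Ndufaf8, a small factor that works with Ndufaf5, had the largest fold of all members and a wide spread, with 29.7, 30.9 and 36.2 FPKM under saline, against 48.9, 40.7 and 45.7 under morphine (log2 fold change 0.47, SE 0.10, limma adjusted p = 0.0616). Ndufaf2, a factor of the late steps and a paralogue of the subunit Ndufa12, measured 55.5, 58.7 and 58.4 FPKM with saline, against 71.7, 67.8 and 70.6 with morphine (0.28, adjusted p = 0.0544). In both the groups did not overlap (13.0% of tested genes had all morphine values higher). Both passed without morphine 2, when 3.63% of all genes were called higher, and neither passed with any other library left out.

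Ndufaf3, which works with Ndufaf4 in an early step of the quinone module, measured 25.8, 26.8 and 23.2 FPKM with saline, against 34.4, 28.9 and 27.5 with morphine (log2 fold change 0.24, limma adjusted p = 0.205). Ndufaf4 itself measured 19.5, 20.6 and 21.2 FPKM with saline, against 18.6, 19.3 and 22.2 with morphine, with a log2 fold change of -0.03 that became 0.02 without morphine 1. The groups did not overlap in Ndufaf3 and overlapped in Ndufaf4. Exons of Ndufaf3 overlap those of Impdh2 on the opposite strand, which stood at 37.8 FPKM in saline and 44.6 in morphine, above Ndufaf3 itself.

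Ndufaf5, which hydroxylates Ndufs7, measured 31.0, 29.2 and 29.0 FPKM with saline, against 32.2, 31.8 and 33.4 with morphine (log2 fold change 0.12, limma adjusted p = 0.264). Ndufaf7, a methyltransferase, measured 13.2, 13.7 and 12.8 FPKM with saline, against 12.5, 13.1 and 13.2 with morphine (-0.03, adjusted p = 0.824). The groups did not overlap in Ndufaf5 and overlapped in Ndufaf7.

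Ndufaf1, a factor of the membrane arm, measured 22.9, 21.2 and 22.8 FPKM with saline, against 20.2, 20.1 and 21.1 with morphine. All its morphine values lay below its saline values (background 15.7% of tested genes), with a log2 fold change of -0.12 (limma adjusted p = 0.311). Ndufaf6, the least abundant factor, measured 9.35, 7.52 and 8.88 FPKM with saline, against 10.3, 8.06 and 11.9 with morphine, with overlapping groups (0.20, adjusted p = 0.451).

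Ndufa4, long listed with complex I and now assigned to complex IV, was the most abundant member. It measured 726, 710.0 and 745 FPKM with saline, against 851, 842 and 908 with morphine (log2 fold change 0.25, limma adjusted p = 0.0580), close to the median of the accessory subunits. Its paralogue Ndufa4l2, a gene induced by hypoxia, was the least abundant member, with 3.19, 2.63 and 2.75 FPKM under saline, against 2.10, 2.35 and 2.11 under morphine. Its morphine values lay below its saline values (-0.27, 95% interval -0.51 to -0.04, adjusted p = 0.170). At the estimated depth of the libraries these levels rest on few fragments, about 53, 53 and 45 with saline, against 33, 33 and 30 with morphine.

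Summing the transcripts of a class within each library weights its abundant members most. Summed core transcripts were 994.6 ± 22.5 FPKM in saline and 1124 ± 45.6 in morphine, a ratio of 1.13. Summed accessory transcripts were 6689 ± 210.9 and 8101 ± 262.9, a ratio of 1.21, and summed assembly factors 209 ± 2.90 and 241 ± 10.2, a ratio of 1.15 (SD, n = 3 each). The ratio of the accessory to the core sum of deposited FPKM is left as it is by any single factor per library, such as that of TPM, but not by quantile normalization or by removal of the length trend. It was 6.96, 6.62 and 6.60 in saline 1, 2 and 3 and 7.18, 7.28 and 7.16 in morphine 1, 2 and 3, so that the groups did not overlap, with means of 6.73 ± 0.203 and 7.21 ± 0.0641. The smallest two-sided p that an exact permutation of 3 against 3 libraries allows is 0.10, and no p is given.

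As a mean over genes on the log2 scale, the accessory class stood 0.26 above its saline mean in morphine, the core class 0.18 and the assembly class 0.14. With TPM these differences were 0.13, 0.05 and 0.02, and the core and assembly groups then overlapped. With quantile normalization they were 0.14, 0.09 and 0.14. Morphine 2 was the lowest morphine library in 33 of 46 members, and saline 2 the lowest saline library in 28.

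**Figure D3:**
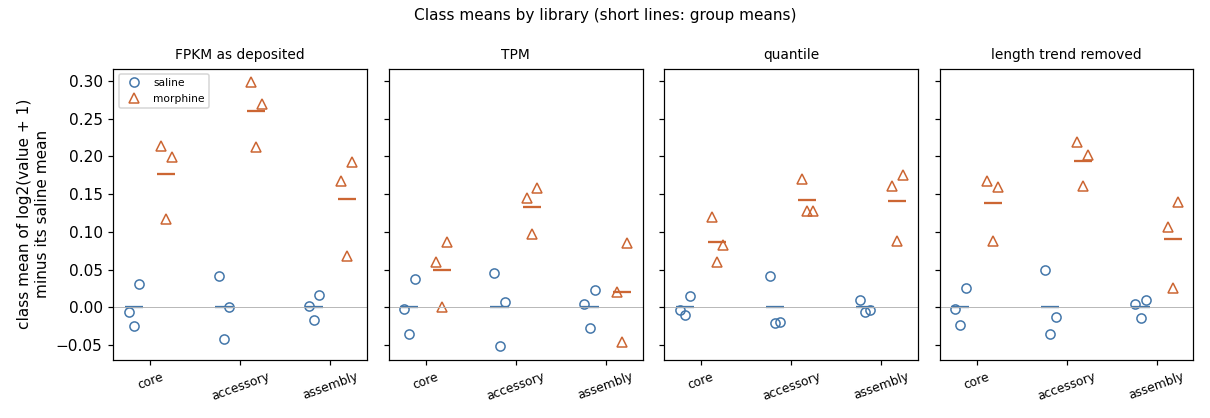
Mean log2 value over the members of each class in each library, relative to the saline mean of the class, under the scalings named in the panels, with points for single libraries. Accessory values in morphine lie at 0.21 to 0.30 with FPKM as deposited, core values at 0.12 to 0.21 and assembly values at 0.07 to 0.19, and the core and assembly classes overlap between groups with TPM.

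Facts of the libraries move with the groups. FPKM summed to 662470 to 670280 in saline and to 720234 to 741145 in morphine, and dividing by this total is what the TPM setting does. Estimated from the steps between low values, depth was 21.2 to 26.1 M fragments in saline (M, 1000000) and 17.9 to 19.9 M in morphine. Across the 14588 tested genes with an annotated length, the log2 fold change and the log length of the exons were related with Pearson r = -0.23 and Spearman rho = -0.31, a description across genes that share these 6 libraries. Members are short, with a median exonic length of 1643.5 bases against 4170.5 for tested genes, and accessory genes shortest, at 1251 bases. Among the members the same relation had r = -0.17 and rho = -0.21. By class, r and rho were -0.06 and -0.68 for core, -0.10 and -0.04 for accessory and -0.55 and -0.38 for assembly genes. Over all members the fold change was more closely related to the mean log2 level, with r = 0.575 and rho = 0.415. The classes also differ in level. With the length trend removed the class differences were 0.19 for accessory, 0.14 for core and 0.09 for assembly genes. The part of total, depth, length and level in the results above was otherwise not tested.

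**Figure D4:**
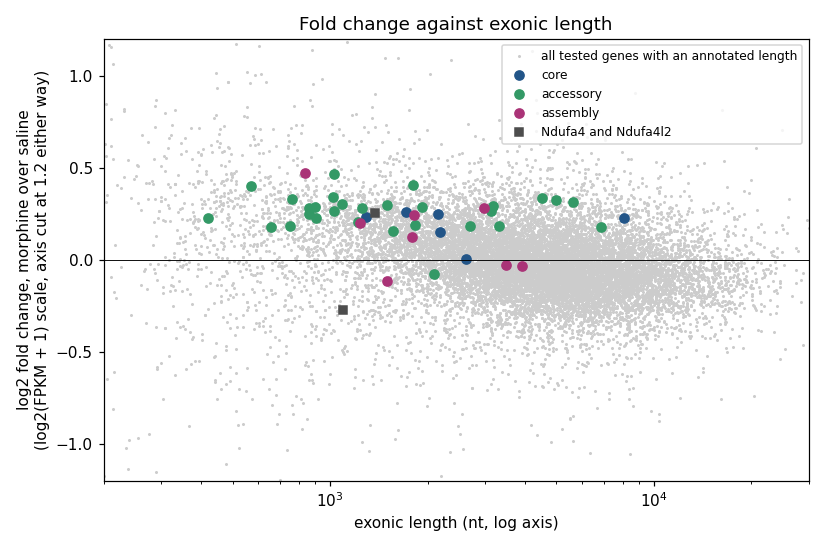
Log2 fold change, morphine over saline, against annotated exonic length on a log axis, with tested genes that have an annotated length in grey. The members are in colour by class, with 1 core member not drawn. Both axes are cut, so the most extreme tested genes are not shown. Accessory subunits, with a median of 1251 bases, lie mostly above 0, and 4 of them, Ndufab1, Ndufb2, Ndufb5 and Ndufb7, are longer than the median tested gene.

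Markers of other cell types were read in the same libraries. Summed red cell markers were 757 to 1077 FPKM in saline and 421.1 to 594.8 in morphine, with 1 of 5 genes called lower (0.561% of all tested genes). Summed endothelial and pericyte markers were 78.7 to 80.9 and 62.6 to 76.7. Summed skeletal muscle markers were 4.20 to 7.22 FPKM in saline and 7.45 to 8.33 in morphine, with 4 of 6 genes under 1 FPKM. Neuron markers (3790 to 4824 and 3676 to 4515 FPKM), astrocyte, oligodendrocyte, oligodendrocyte precursor, microglia, ependymal, meningeal and Schwann cell or sensory ganglion markers had sums that overlapped between groups. Of the ependymal markers 1 of 4 tested was called higher (0.944% of all tested genes). This was Ccdc153, at 0.24 FPKM in saline and 1.48 in morphine (limma adjusted p = 0.0488). It met the filter only through its morphine libraries, so its call was partly set by the filter. Dynlrb2 was at 0.593 and 1.77 FPKM, Foxj1 at 9.67 and 9.85, and Rarres2 at 8.02 and 8.54. Motor neuron markers split the libraries in another way, at 229.9, 247.3 and 48.3 FPKM in saline 1, 2 and 3 and 95.3, 239 and 36.7 in morphine 1, 2 and 3. None of these markers was at 0 in all libraries. Their part in the results was not tested, and in bulk tissue a change in the number of cells and in RNA per cell cannot be told apart.

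In the other mitochondrial lists read here no gene passed limma's adjusted threshold. Their median exonic lengths were 2795 bases (other assembly factors), 4302 (general mitochondrial genes), 5063 (biogenesis regulators) and 3104 (cluster and flavin supply), against 1251 for accessory subunits. No list held the subunits of the other respiratory complexes, so whether the shift is particular to complex I was not tested. Of 12 other assembly factors of complex I 0 passed and 0 had an unadjusted p under 0.05, with a median log2 fold change of 0.04. Lyrm2 was at 34.4 and 39.0 FPKM in saline and morphine (limma adjusted p = 0.344) and Tmem261, also named Dmac1, at 47.0 and 49.9 (adjusted p = 0.411). Of 23 general mitochondrial genes outside the respiratory chain 0 passed and 14 had a lower mean, with a median of -0.01, and 4 higher and 5 lower genes had an unadjusted p under 0.05, which 11.2% of tested genes reached as higher and 11.1% as lower. The chaperone Hspd1 was at 111 and 92.3 FPKM (adjusted p = 0.0648). Of 18 regulators of mitochondrial biogenesis 0 passed and 11 had a lower mean, with a median of -0.07. At that p there were 4 higher and 2 lower regulators. The mitochondrial DNA polymerase Polg was at 18.2 ± 0.199 and 22.9 ± 1.01 FPKM (adjusted p = 0.0548) and the RNA polymerase Polrmt at 17.6 ± 1.42 and 24.5 ± 4.11 (adjusted p = 0.0984). Next in order of p, Tfam and Gabpa had lower means with morphine. Of 17 genes that supply iron-sulphur clusters and flavin 0 passed, with a median of 0.11 that became -0.02 with TPM, and at that p there were 5 higher and 1 lower. The cluster scaffold Iscu was at 211 and 246 FPKM (adjusted p = 0.0643) and Bola3 at 42.9 and 55.3 (adjusted p = 0.0666).

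Some member values are less certain because of near-identical copies. A pseudogene at least 95% identical over at least 150 bases was found for 9 members. The copy of Ndufb4 had a mean of 250.9 FPKM, 242% of the level of Ndufb4 itself, so the value of Ndufb4 is uncertain. The sum of both was 326.2 FPKM in saline and 382.6 in morphine, a ratio of 1.17, beside 1.22 for Ndufb4 alone. For Ndufa12 the copy had 26.4% of its level, and the sum gave a ratio of 1.14. Exons of 19 of the 46 members overlap another annotated gene, 3 of them on the same strand, and the labels do not say whether counting used strand. Of the 6 that passed, Ndufa5, Ndufa6, Ndufb3 and Ndufv3 share no exonic sequence. Ndufa2 overlaps Tmco6, at 3.15 and 3.13 FPKM, and Ndufb5 overlaps Mrpl47, at 18.4 and 20.1 FPKM, both far below the member. Among members that did not pass, the partner can stand above the member. Eef1b2 was at 226 and 269 FPKM beside Ndufs1, Impdh2 at 37.8 and 44.6 FPKM beside Ndufaf3, and Shmt2 at 13.2 and 13.7 FPKM beside Ndufa4l2. The values of these members are less certain.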

How the data were processed

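RNA-seq libraries of mouse lumbar spinal cord, 3 from saline and 3 from morphine animals, were read from 1 table of FPKM per gene, the unit in which the authors deposited the values. The submitters' processing notes name bcl2fastq 2.19.0, Trimmomatic, STAR, RSEM and mm10, with no role given here. No counts were used, so a count test was not run, and depth was estimated from the steps between low FPKM values (17.9 to 26.1 M fragments, M being 1000000). The labels put each library in its group.

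The 14614 genes that reached 1 FPKM in 3 or more libraries were tested on log2(FPKM + 1) with limma 3.58.1 in R 4.3.3 with an intensity trend, and p-values were adjusted over all of them (Benjamini-Hochberg, threshold 0.05). Fold changes are on that scale and understate the change of low genes. On simulated data with the real means for 14614 genes the fit recovered 19.2% of 1.25-fold and 62.8% of 1.5-fold changes and called 0.0458% of unchanged genes. The changed genes were drawn only from those of higher saline level, and the noise was independent between genes. Shifts that many genes of a library share were not simulated, so these shares are not error rates for the real libraries. Alternatives were another pseudocount and filter, TPM, quantile normalization, removal of the length trend (loess), no intensity trend, a replicate block and each library left out. Lengths and overlaps came from GENCODE M21, copies from BLAST 2.17.0, and promoters from RefSeq (GRCm38.p6). Pandas 2.3.3 and NumPy 2.4.6 were used under Python 3.11.15.

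Members and lists were chosen with earlier results of these data known. Values in each library are given for members that passed, all core and assembly genes, Ndufa4, Ndufa4l2 and the 10 accessory genes with the smallest p, and group means for up to 4 called genes, or the 2 with the smallest p, of each other mitochondrial list. Of the members 1 core subunit, and 1 gene of the general mitochondrial list, are counted in their classes but not reported here by name. Mitochondrially encoded subunits were not analysed here. Of 13 other assembly factors 12 were matched by symbol.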

Additional observations from a re-analysis of the deposited data

How the results depend on the processing

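Removing 1 library leaves 2 in its group, with the spread pooled by limma, and how far depth limits small folds was not tested. Called higher among all genes (138) were 6 with no filter, 211 at a mean of at least 5 FPKM, 47 with quantile normalization, 19 with the length trend removed, 14 with no intensity trend and 0 to 531 with each library left out. Called lower (82) were 2 with no filter, 853 with TPM, 21 with the length trend removed, 22 with no intensity trend and 1 to 274 with each library left out. Of the members (6, all accessory) 0 passed with no filter, 10 at a mean of at least 5 FPKM, 3 with TPM, 1 with quantile normalization, 0 with the length trend removed, 0 with no intensity trend and 0 to 18 with each library left out. Left-out libraries gave 0 to 13 accessory, 0 to 2 core and 0 to 2 assembly calls, and a mean of at least 5 FPKM gave 1 assembly call.

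With TPM, quantile normalization and the length trend removed, the median was 0.121, 0.137 and 0.172 for members, 0.101, 0.122 and 0.143 for core and 0.151, 0.143 and 0.191 for accessory genes. For assembly genes it was 0.042 with TPM and 0.080 with the length trend removed. Other assembly factors had -0.080 with TPM. Biogenesis regulators had 1 call higher and a median of -0.051 at a mean of at least 5 FPKM, 2 calls lower and -0.181 with TPM, and -0.027 with the length trend removed. General mitochondrial genes had 4 calls lower and -0.140 with TPM and -0.080 with quantile normalization. Iron-sulphur and flavin genes had 1 call lower and -0.016 with TPM, 0.070 with quantile normalization and 0.182 at a mean of at least 5 FPKM. With each library left out, the median ran from 0.234 to 0.313 for accessory genes, 0.093 to 0.205 for assembly genes, -0.105 to -0.057 for biogenesis regulators and 0.079 to 0.169 for iron-sulphur and flavin genes. The YY1 letters were in 0.0% of windows cut to the 250 bases before the start.

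Single genes changed sign: Ndufaf5 (-0.002) with TPM, Ndufaf4 without morphine 1 (range with each library left out -0.104 to 0.019), and Ndufv1 with TPM (-0.122), quantile normalization (-0.085), the length trend removed (-0.021), and without saline 1, saline 2 or morphine 3 (-0.010, -0.015 and -0.034, with a range up to 0.043). The causes were not tested.

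Replicate numbers are shared between groups, and same-numbered libraries had correlated deviations of -0.13, 0.16 and 0.29, so the numbers were not taken to pair them, and not every library correlated best with its own number. With a replicate block 17 genes were called higher and 7 lower, with 0 members. With the replicate block and the length trend removed, an alternative chosen after seeing the data, the counts were 6 and 5, with 0 members, and medians were 0.172 for members, 0.143 for core, 0.191 for accessory, 0.080 for assembly and -0.027 for biogenesis genes, and Ndufv1 was at -0.021.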
